A study of Mus musculus with 4 samples.

Results

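Oocyte maturation under the label Erk-/- was described by setting 1 library of mature eggs (MII, arrested in metaphase of the second meiotic division) against 1 library of fully grown oocytes (GV, with an intact germinal vesicle, before meiosis resumes). The genes described had at least 5 FPKM (fragments mapped to a transcript, scaled to its length in kilobases and to the size of the library) in 1 or both of these libraries. They numbered 7821 of the 23309 gene symbols in the files. Each gene has 1 maturation ratio, log2((MII FPKM + 1)/(GV FPKM + 1)), and was counted as higher or lower at MII where this ratio reached 2-fold. With 1 library per group no difference could be tested, so the values below compare single libraries and the counts rest on a rule of size. Where values follow a gene as a pair, the first is its FPKM at GV and the second its FPKM at MII, in the pair labelled Erk-/- unless wild type is named.

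The series holds 4 libraries of ICR mouse oocytes, 1 for each combination of genotype (wild type or Erk-/-) and stage (GV or MII). Each was prepared from 60 cells lysed together, taken from females of 21 to 23 days. The labels do not say which Erk gene or exons were deleted, in which cells the deletion arose or whether a Cre transgene was used. The treatment text mentions Btg4-/- females in place of Erk-/- ones, and gives the hormones PMSG and hCG without tying them to a library. The series' design text counts 1 oocyte per group where the extraction text counts 60. By the labels the wild-type pair differs from the other pair in genotype alone, and other differences between the libraries cannot be seen from them. Summed FPKM was 420889 at GV and 414167 at MII in the pair labelled Erk-/-, and 453226 and 401160 in wild type, and the read depth behind these values is unknown.

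An ERK gene was examined first, although the labels do not say whether it was the one deleted. Mapk3, the gene of ERK1 (mm9 chromosome 7, 133903140 to 133909330), measured 52.3 FPKM at GV (authors' bounds 44.3 to 54.5) and 34.3 at MII (28.9 to 35.4) in the pair labelled Erk-/-. The wild-type values were 333 at GV and 25.7 at MII. The GV library labelled Erk-/- was thus far below its wild-type counterpart, and the MII library labelled Erk-/- was not. The MII label therefore has no support from this gene, and the libraries are named by their labels throughout. Of 12 oocyte markers all were above 0 in both libraries, and together they made up 4.44% of the summed FPKM at GV and 5.77% at MII. The 17 granulosa and cumulus cell markers summed to 29.5 and 15.4 FPKM, of which 13 and 10 were listed at 0, with Amh, Foxl2, Fshr, Lhcgr, Has2 and Ptx3 at 0 in both. Collagen, hemoglobin, leukocyte (Ptprc) and protamine 1 transcripts were also listed at 0 in both. The exceptions above 5 FPKM were Pecam1 (42.9 at GV, 64.3 at MII), Nr5a2 (17 and 1.20), Inha (11.3 and 0.0698), Prm2 (13.6 and 0), Cyp19a1 (0 and 10.8) and Cd68 (0 and 6.79).

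Fully grown oocytes have almost stopped transcribing and live on stored maternal mRNA. During maturation some of these messages gain poly(A) and are translated, often through a U-rich cytoplasmic polyadenylation element bound by CPEB1, while many others lose their poly(A) tail to the CCR4-NOT deadenylase, recruited by BTG4, and are degraded. The ERK kinases stand at the end of a cascade that starts with the oocyte kinase MOS and runs through the MEK kinases. In mouse oocytes it becomes active after the germinal vesicle breaks down and is known for spindle organisation, for the metaphase arrest of the egg and for the translation of stored messages.

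In the pair labelled Erk-/-, far more transcripts were lower than higher in the mature egg. Of the 7821 genes, 3157 (40.4%) were at least 2-fold lower at MII, 1718 (22.0%) were at least 2-fold higher and 2946 lay between. Counts within the gene lists below are to be read against these shares. The median ratio was -0.51, with quartiles of -1.88 and 0.80. At 8-fold or more, 808 genes were lower and 311 higher. FPKM is relative to each library's total and does not measure RNA per oocyte, so a fall of 1 transcript and a rise of the others cannot be told apart. In pooled cells, less of a transcript per cell and fewer cells that hold it cannot be told apart either. Whether poly(A) RNA was selected is not stated in the labels. If it was, a change in poly(A) tail length and a change in amount cannot be told apart. Median-of-ratios scaling moved the median of all genes up by 0.53 and gave 2395 higher and 2470 lower, so that 49.2% of the genes 2-fold apart were higher, against 35.2% as deposited. That scaling sets the middle ratio of genes above 0 in both libraries to 0. The near-even split follows from this and is not a separate result. Ratios just below 0 turn positive under that scaling, and list medians that do so are given under both. The authors' bounds, which describe each library alone, were usable in both libraries for 6731 genes. Of these, 1433 (21.3%) were 2-fold higher and 2766 (41.1%) 2-fold lower with bounds that did not overlap.

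The surplus of lower genes was greatest among transcripts of low and middle abundance. Of the 2603 genes with a mean of 10 to 30 FPKM over the 2 libraries, 43% were lower and 17.4% higher (median -0.66). Of the 601 genes with 100 to 300 FPKM, 25.6% were lower and 27.1% higher (median 0.15), and of the 207 genes with 300 FPKM or more, 20.8% were lower and 29.95% higher (median 0.27). The most abundant messages therefore took a larger share of the mature library, with 11.2% of the summed FPKM in the 10 highest genes against 6.85% at GV. Near the filter, the 401 genes whose higher stage had 5 to 6 FPKM had a median of -0.35, and the 425 genes just outside it, at 4 to 5 FPKM, had -0.04.

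**Figure D1:**
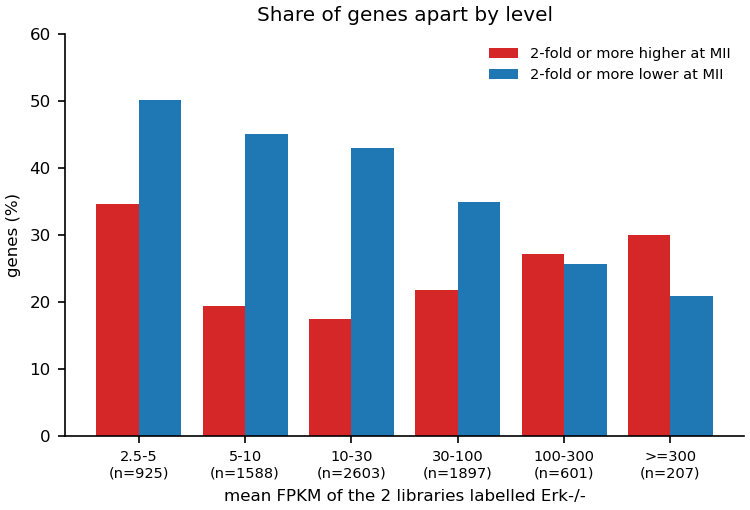
Share of genes at least 2-fold higher (red) or at least 2-fold lower (blue) at MII in the pair labelled Erk-/- (vertical axis, percent of genes), by mean FPKM of both libraries (horizontal axis, with the number of genes in each class). Lower genes outnumber higher ones in each class under 100 FPKM, and at 300 FPKM or more 29.95% were higher and 20.8% lower.

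**Figure D2:**
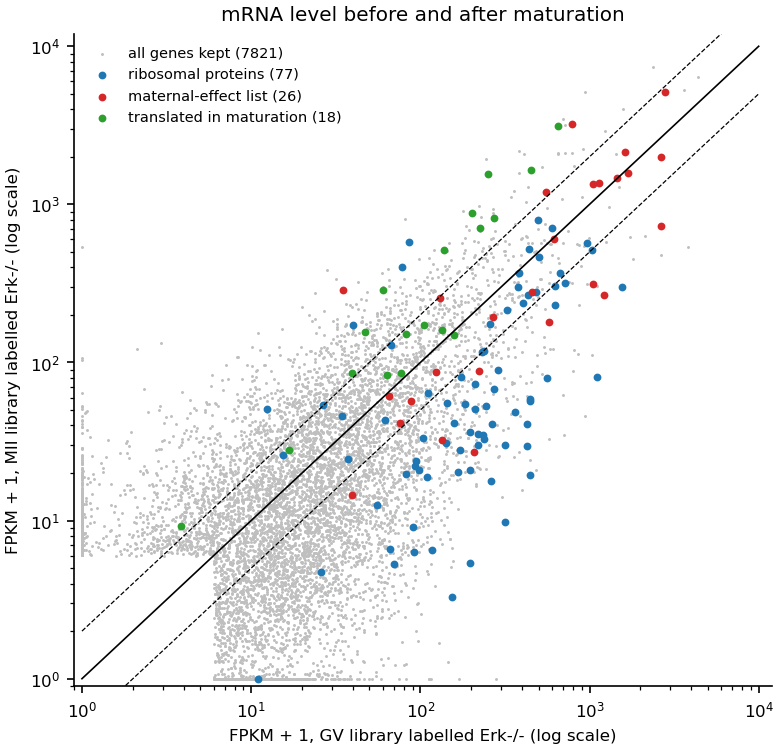
FPKM + 1 of the 7821 genes (grey) in the GV library (horizontal, log scale) and the MII library (vertical, log scale) labelled Erk-/-, with the ribosomal protein genes (blue), the maternal-effect list (red) and the mRNAs known for translation during maturation (green). The solid line marks equal values and the dashed lines a 2-fold difference, below which 52 of 77 ribosomal protein genes fall, while 11 of 18 of the translated messages lie above it and none below.

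The most abundant message of the mature library encodes the oocyte linker histone. H1foo stood at 2363 FPKM before and 7430.0 after maturation, 3.14-fold higher, with 2353 and 9139 in wild type. Ldhb, the lactate dehydrogenase subunit of the oocyte, had 4372 and 6356 FPKM in the pair labelled Erk-/- and 6619 and 2389 in wild type. Ldhb headed the GV library and followed H1foo at MII. It was within 2-fold in the pair labelled Erk-/- and more than 2-fold lower at MII in wild type. Bcl2l10, an oocyte-rich member of the BCL2 family of survival proteins, went from 939 FPKM at GV to 5103 at MII (5.44-fold). Tcl1, a coactivator of AKT kinase needed by the cleaving embryo, went from 788 to 3213, and Oosp1, an oocyte-secreted protein, from 1581 to 3996. Spin1, a chromatin reader first described on the meiotic spindle, had 1227 and 2921 FPKM, and Oas1d, an oocyte member of the oligoadenylate synthetase family, 911 and 2240.5. Among the 12 most abundant genes at GV, Zp3, Zp2, Padi6, the ubiquitin gene Ubb (2641 and 481 FPKM), Gm15698 (2122 and 627) and E330017A01Rik (1731 and 618) were at least 2-fold lower at MII. Abundant GV messages thus included both directions.

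The 3 zona pellucida transcripts were lower at MII. Of 11 genes of the egg coat and cortical granules, 5 were lower and 1 higher (median -0.65, -0.14 scaled and -1.52 at 10 FPKM or more). The share lower was near the 40.4% over all genes. Zp3 (mm9 chromosome 5, 136455975 to 136464494), the sperm-binding coat glycoprotein, measured 3811 FPKM before and 533 after maturation. Its structural partners Zp2 (1819 and 449) and Zp1 (1103 and 305) were also lower. Nsf and Napa, which recycle the membrane fusion machinery, had 199.9 and 40.8, and 44.9 and 14.9 FPKM. Astl, the gene of the cortical granule protease ovastacin that cleaves ZP2 after fertilization, had 559 and 571 FPKM, and Oosp1 was the member that was higher. Coat glycoproteins and the protease that later acts on them thus had unlike ratios in this pair of libraries.

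Of the 5 secreted growth factor genes that passed the filter, 1 was lower and none higher (median -0.51). Gdf9 (3611 and 5255 FPKM) and Bmp15 (901 and 1117), the TGF-beta family factors through which the oocyte instructs cumulus cells, were less than 2-fold apart. Tgfb2 went from 45.5 to 19 FPKM. Bmp6 had 116 and 62.3, and Fgf8 24.8 and 17.1.

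The stored proteins on which the embryo depends were mixed. The list of the subcortical maternal complex, the cytoplasmic lattice and other maternal-effect genes held 26, with 8 lower and 3 higher. The median was -0.45 as deposited and 0.08 after median-of-ratios scaling. Padi6 (mm9 chromosome 4, 140283270 to 140298558), a peptidylarginine deiminase needed for the lattice, measured 2640.5 FPKM before and 727 after maturation, 3.63-fold lower. Core members of the complex were within 2-fold. Nlrp5 had 612 (bounds 609 to 632) and 604 (601 to 623), Tle6 1694 and 1584, Ooep 1142 and 1369.5, and Khdc3 458 and 277. In wild type the same genes had 1172 and 145, 2245 and 203, 1242 and 171, and 495 and 28 FPKM. These genes were thus lower at MII in the wild-type pair and within 2-fold in the pair labelled Erk-/-. Zbed3, which encodes another protein of the complex, had 2801 and 5135 FPKM.

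Other maternal factors in the list differed more. Npm2, the histone chaperone that decondenses sperm chromatin, went from 1209 to 268 FPKM, and Zar1l, a zinc-finger protein that binds stored mRNA, from 206 to 26.2. Its relative Zar1 had 1617 and 2144. Zfp57, which protects imprints, went from 1042 to 313, and Dppa3, which protects maternal DNA methylation, had 1054 and 1339.5. Sall4, a transcription factor of oocyte and early embryo, was the highest member by ratio, with 34.1 and 287 FPKM. The Nlrp family as a whole had 1 of 11 members lower and none higher, with a median of -0.41 that turned to 0.04 when scaled. Nlrp14, which the female germline needs for fertility, had 1462 and 1461 FPKM, and Nlrp2 was the lower member (133 and 31.1). Several of these genes have close copies (Nlrp4, Nlrp9 and Oog genes) among which reads may have been split.

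Among receptors and calcium handling genes of the egg surface, 7 of 19 were lower and 3 higher (median -0.80, and -0.11 among genes above 0 in all 4 libraries), near the 40.4% lower over all genes. Orai1, a plasma membrane calcium channel, had 72.5 and 1.70 FPKM, and Gja4, the connexin that couples oocyte and granulosa cells, 486 and 111. Folr4, the older symbol of the sperm receptor gene Juno, went from 329.7 to 122, while Cd9, the tetraspanin needed for fusion, had 200.1 and 101. Itpr1, the calcium release channel, had 16.4 and 28.2 and the receptor gene Kit 89.2 and 98. Ppp3r1, the regulatory subunit of calcineurin, was higher (32.8 and 105).

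**Figure D3:**
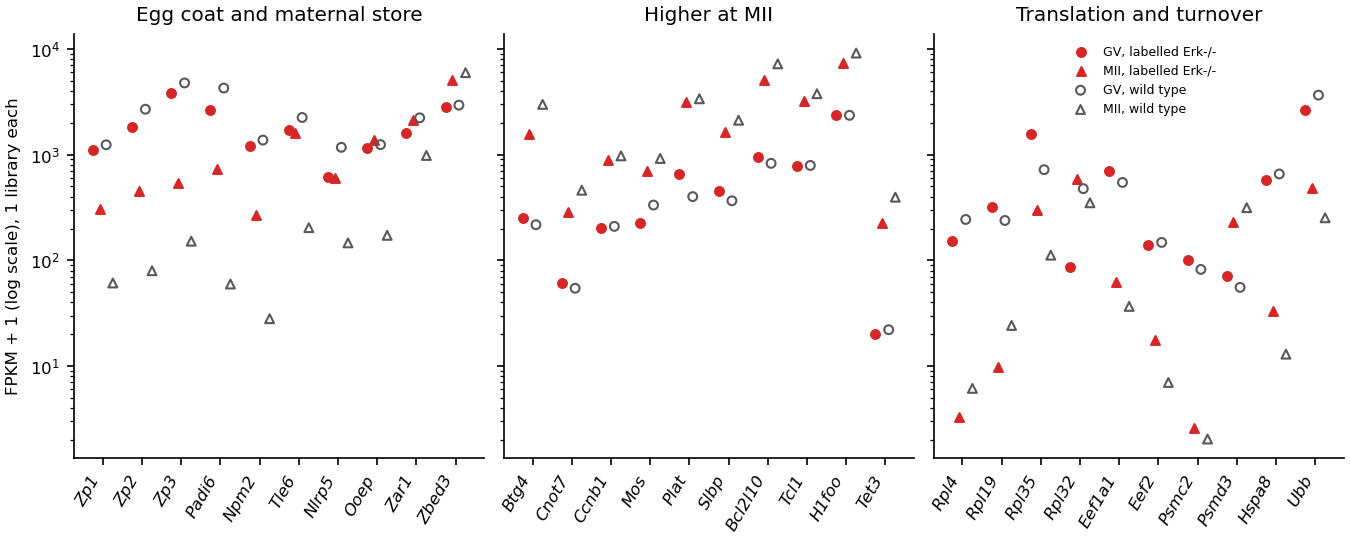
FPKM + 1 (vertical, log scale) of 30 genes in the 4 libraries, 1 point per library: filled red circles and triangles for GV and MII labelled Erk-/-, open grey circles and triangles for wild-type GV and MII. The egg coat genes were lower at MII in both pairs, Nlrp5, Tle6 and Ooep were level in the pair labelled Erk-/- and lower in wild type, and the genes of the middle panel were higher at MII in both pairs.

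The messages described as activated for translation during maturation had the highest median of the lists with 5 or more genes. The lists were chosen with earlier results of these data known, and some genes are in several lists, so the rank only describes them. Of 18 genes, 11 were higher, none was lower and 7 lay between (median 1.42, and 1.90 scaled, against -0.51 over all genes). Btg4 (mm9 chromosome 9, 50924106 to 50927805) measured 250.2 FPKM before and 1565 after maturation. Slbp, which encodes the protein that binds the stem-loop of histone mRNA, went from 451 to 1651, and Plat, the tissue plasminogen activator, from 654 to 3122. Ccnb1, the cyclin of CDK1, had 201 and 884 FPKM, Mos 225 and 704, and the checkpoint gene Bub1b 273 and 822. The 7 genes between, among them Cnot6l, Dazl, Cdc20, Ccnb2, Wee2 and Il7, had ratios from -0.08 to 0.88. In wild type 15 of the same 18 were higher and none lower (median 2.04).

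Several of these 18 messages carry a canonical polyadenylation element near the annotated 3′ end of their transcript. The 3′ UTR was taken from GENCODE M21 (build GRCm38), and the last 100 bases were searched on the mRNA strand for TTTTAT and TTTTAAT. Of the 17 genes with a 3′ UTR of at least 100 bases, 6 held an element, namely Btg4, Bub1b, Dcp1a, Orc6, Plat and Wee2. Their sites are shown because they are the members of this list in which the element was found, with the element in capitals and written 5′ to 3′ as DNA.

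Btg4: taaatccctTTTTATgtcttttta
Bub1b: cactgtgtaTTTTATaataaaata
Dcp1a: aatatatttTTTTAATaaaatttca
Orc6: ttttttaaaTTTTATttcactaaa
Plat: atatttataTTTTAATctattttag
Wee2: aaataaagaTTTTATcttatccaa

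The Btg4 site lies at GRCm38 chr9:51119800-51119823 (plus strand), with 61 bases between the element and the annotated transcript end. That of the decapping cofactor Dcp1a lies at chr14:30527012-30527036 (plus strand), with 36 bases. The Dcp1a element overlaps the letters AATAAA, the polyadenylation signal considered below. The site of Bub1b lies at chr2:118641556-118641579, that of the replication origin gene Orc6 at chr8:85308008-85308031, that of Plat at chr8:22782747-22782771 and that of Wee2, the oocyte kinase that holds CDK1 in check, at chr6:40466787-40466810, all on the plus strand. Orc6 had 46 and 154 FPKM, Dcp1a 138 and 513, and Wee2 104 and 171. Mos, Ccnb1, Slbp and Cnot7 had none of these letters in the window, and their ratios were 1.64, 2.13, 1.87 and 2.25.

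The same element was then counted in all genes. A 3′ UTR of at least 100 bases was annotated for 7063 of the 7821 genes (90.3%), and 1475 of these (20.9%) held 1 or more elements in the last 100 bases, against 17.8% of the 19094 annotated 3′ UTRs of that length. Genes with an element had a median ratio of 0.35, with 35.6% higher and 25.4% lower. The 5588 genes without one had -0.65, with 18.6% higher and 43% lower. The median was 0.28 with 1 element, 0.71 with 2 (206 genes) and 0.86 with 3 or more (26 genes). With the element elsewhere in the 3′ UTR alone it was -0.22, and with none in the 3′ UTR -1.10. Read the other way, 33.6% of the higher genes, 21.1% of those between and 13.5% of the lower genes held the element.

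The polyadenylation signal AATAAA, which nuclear cleavage and cytoplasmic polyadenylation both use, was considered beside it. It was found in the last 100 bases of 63.9% of all annotated 3′ UTRs of that length. Genes with both the signal and the element had a median of 0.57 (1012 genes), and genes with the element but without the signal -0.48 (463 genes). Genes with the signal alone had -0.46 and genes with neither -1.04. The element and the signal overlapped in 93 of the genes, which had a median of 0.22.

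Base composition moved with these ratios. The genes were cut into 5 groups by the G and C content of the last 100 bases. From the lowest group (9 to 28%) to the highest (46 to 74%) the median went from 0.38 to -1.26, and the Spearman correlation over the 7063 genes, which share 2 libraries and are not independent, was -0.26. Within each group genes with an element had the higher median, with 0.74 against 0.06 in the lowest, 0.22 against -0.27, -0.05 against -0.56, -0.58 against -0.88, and -0.97 against -1.27 in the highest. The same held within 5 groups by length of the 3′ UTR, from 0.20 against -1.15 in the shortest (100 to 333 bases) to 0.24 against -0.18 in the longest. Among genes of 30 FPKM or more at GV the medians were 0.09 and -0.93. The letters ATTTA, a core of destabilizing AU-rich elements, occur in 66.0% of all such 3′ UTRs, and the median went from -0.91 in genes with 0 copies to 0.18 in those with 6 or more, groups whose median 3′ UTR was 388 and 3017 bases long. A match describes the annotated sequence and does not show which 3′ end the oocyte uses. If poly(A) RNA was selected, which is not stated, these ratios may also follow tail length, and this was not tested.

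**Figure D4:**
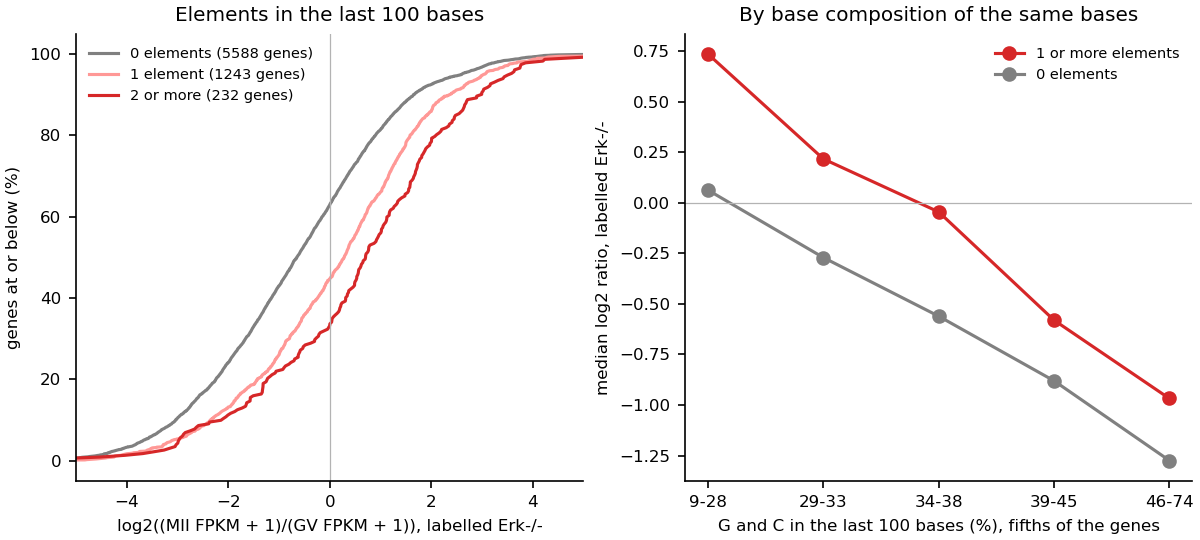
Left, cumulative share of genes (vertical, percent) by maturation ratio in the pair labelled Erk-/- (horizontal, log2) for genes with 0, 1 or at least 2 polyadenylation elements in the last 100 bases of the annotated 3′ UTR. Right, median ratio (vertical, log2) by 5 groups of G and C content of the same bases (horizontal, percent), where genes with an element (red) lie above genes without (grey) in each group, from 0.74 against 0.06 to -0.97 against -1.27.

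The element was also present in several of the most abundant or most changed messages outside that list. Sites are printed for 5 of them, 3 that were among the most abundant messages of the egg and 2 with some of the highest ratios above 100 FPKM. All 5 were higher at MII, so they do not show how often changed messages hold the element. Over all genes 33.6% of the higher ones held it, and most had none. Within some lists, such as the translation factors and the cohesin and condensin genes, members with the element had the lower median, and within others the higher one.

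H1foo: ttctgaagcTTTTATtgtctaata
Bcl2l10: ttaatacatTTTTAATaacttcaaa
Tcl1: tgtgtgggaTTTTATgtggttcta
Gtf2a1: ataaagataTTTTATttattgcca
Lbr: gcaagttgtTTTTAATttgatgttt

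They lie at GRCm38 chr6:115950160-115950183 (H1foo, plus strand), chr9:75351582-75351606 (Bcl2l10, plus), chr12:105216800-105216823 (Tcl1, minus), chr12:91555265-91555288 (Gtf2a1, minus) and chr1:181815385-181815409 (Lbr, minus). The values of H1foo, Bcl2l10 and Tcl1 are given above. Gtf2a1, a subunit of the general transcription factor TFIIA, had 1.94 and 132 FPKM, and Lbr, the lamin B receptor of the nuclear envelope, 23 and 274. Padi6, Npm2, Tacc3, Rpl4 and Ubb, all at least 2-fold lower, had no element in the window, and neither had Nlrp5, Tle6 or Ldhb, which were within 2-fold.

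The machinery that removes poly(A) was itself divided. Of 15 genes of the BTG and CCR4-NOT list, 4 were higher and 5 lower, and the median of -0.22 turned to 0.23 when scaled. The deadenylase genes Cnot7 (59.4 FPKM, bounds 55.4 to 63.5, and 286, 281 to 298) and Cnot8 (64 and 331) were higher with Btg4. Cnot6l, the other kind of catalytic subunit, had 157 and 149. The scaffold gene Cnot1 had 41.6 (39.7 to 43.7) and 14.3 (13.5 to 15.1), Cnot10 19.8 and 0.513, and the antiproliferative genes Btg2 and Tob2 12.7 and 3.07, and 96.3 and 31.4. Catalytic subunits and Btg4 were thus level or higher, and the scaffold gene, Btg2 and Tob2 were lower.

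Decapping and poly(A) trimming genes had 7 of 17 higher (41.2%, against 22.0% over all genes) and 1 lower. The median was 0.56, and 0.11 both at 1 FPKM or more and at 10 FPKM or more. Pan2, the nuclease of the PAN2-PAN3 deadenylase, had 42.5 and 152 FPKM and Pan3 16.2 and 35.5. Dcp2, the decapping enzyme, had 2.86 and 8.24, and Lsm7, of the ring that binds short oligoadenylated tails, 43.8 and 250.0, with 269.8 in wild-type GV. The helicase gene Ddx6 was the lower member (10.9 and 2.80).

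The RNA exosome and nonsense-mediated decay list had 5 of 21 higher and 8 lower (median -0.51). Upf1 (mm9 chromosome 8, 72855421 to 72877172), the helicase of nonsense-mediated decay, measured 30.9 FPKM at GV (28.8 to 33.1) and 335 at MII (331 to 346), with 39.8 and 409 in wild type. Its partners Upf2 (8.41 and 1.86), Upf3b (30.1 and 2.06) and Upf3a (12.4 and a listed 0) were lower. In wild type Upf2 had 5.13 and 5.94. The Smg genes of the same pathway went both ways, with 3.76 and 11.9 for Smg1 and 13.7 and 1.88 for Smg9. Exosome core genes were on both sides, as with Exosc5 (38 and 0.315) and Exosc3 (16.7 and 42.2). In a list of 15 genes of proteins that bind AU-rich, PUF or N6-methyladenosine sites, which holds stabilizing as well as destabilizing factors, 2 were higher and 4 lower (median 0.14, and -0.34 at 10 FPKM or more). The higher genes were Elavl1, known for stabilizing AU-rich messages and listed at 0 at GV with 7.39 FPKM at MII, and Khsrp, known for destabilizing them. Khsrp had 4.81 and 69.8, and Ythdf2, the reader of N6-methyladenosine, 14.5 and 9.67.

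Genes that lengthen, bind or guard the poly(A) tail were lower in 44.4%, near the 40.4% over all genes. Of 27, 12 were lower and 4 higher (median -0.70). Cpeb1 (mm9 chromosome 7, 88491912 to 88599644) measured 418 FPKM at GV (413 to 434) and 73.6 at MII (69.9 to 77.6), and its relative Cpeb4 was listed at 0 at GV and had 23.1 at MII. The cytoplasmic poly(A) polymerase gene Papd4 had 30.5 and 58.4, and Cpsf4l, an oocyte paralogue of a cleavage factor subunit, 945 and 44.8. Pabpc1l, the poly(A) binding protein of the oocyte, had 194 and 89.8, while the nuclear form Pabpn1 was higher (26.1 and 148). Dazl, a translational activator, had 75.9 and 84.7. In the list for mRNA storage and dormancy, 6 of 16 were lower and 2 higher (median -0.76). Ybx2, the germ cell Y-box protein that coats stored mRNA, had 535 and 144, Ybx1 151 and 12.2, Eif4e1b, the oocyte cap-binding protein, 931 and 546, and Lsm14a 111 and 314.

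In the MAPK cascade, 6 of 15 genes were higher and 5 lower, and the median of -0.46 became 0.03 when scaled and 0.46 at 1 FPKM or more. The upstream kinases were higher, with 225 and 704 FPKM for Mos and 81.3 and 262 for Map2k1 (MEK1), whereas Map2k2 (MEK2) had 37.6 and 0.0410. The gene of the RSK kinase Rps6ka6, a substrate of ERK, had 9.31 and 25.6. Of the feedback genes, the phosphatases Dusp1 (36.3 and 110.4) and Dusp7 (115 and 285) were higher and Spry1 (25.5 and 3.42) and Spry4 (72.2 and 30.3) lower. In wild type, 8 of these genes were higher and 3 lower.

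The kinase switch that drives the resumption of meiosis held genes on both sides. Of 23 genes of the CDK1 switch, 11 were lower (47.8%, against 40.4% over all genes) and 3 higher. The median was -0.99, and -0.32 at 10 FPKM or more. Cdk1 measured 31.5 FPKM at GV (27.8 to 34.3) and 11.4 at MII (9.81 to 12.7). The activating phosphatase genes Cdc25a (69.7 and 2.17) and Cdc25b (75.1 and 31) and the germ cell cyclin gene Ccnb3 (27.9 and 3.05) were lower. Ccna2 (27.7 and 74.6) and the PP2A scaffold Ppp2r1a (81.3 and 245) were the other genes that were higher.

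Anaphase-promoting complex, CSF and checkpoint genes had 9 of 26 higher and 10 lower, against 22.0% higher and 40.4% lower over all genes. The median was 0.38, and -0.07 without genes listed at 0. The inhibitor that holds the egg in metaphase, Fbxo43 (EMI2), had 19.6 and 97.2 FPKM, while its relative Fbxo5 (EMI1) had 69.4 and 7.39. The activators Cdc20 and Fzr1 had 134 and 160.5, and 138 and 47.5. Mad2l1, which delays anaphase, had 29.5 and 181, and the checkpoint kinase gene Ttk 67.3 and 8.88. Pttg1, the gene of securin, had 1424 and 2089.

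In the cohesin and condensin list, 9 of 21 were higher and 5 lower (median 0.29, and -0.07 at 10 FPKM or more). Wapal, which releases cohesin from chromosomes, had 9.11 and 124 FPKM, Sgol2, the shugoshin that protects sister cohesion in meiosis, 3.26 and 21.4, and Espl1, the gene of separase, 50.6 and 133. The condensin genes Smc4 (140.3 and 36.9) and Ncapg (82.2 and 9.18) were lower. Of 32 spindle genes, 11 were higher and 7 lower (median 0.33). Tacc3, which stabilizes spindle microtubules, had 479.8 and 19.7, and Gsg2, the older symbol of haspin, 57.9 and 3.11. Aurkc, the Aurora kinase of germ cells, had 184 and 515, Numa1, a spindle pole organizer, 18.9 and 59.4, and Plk1 182 and 147.

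Kinesin motor genes had 6 of 25 higher and 8 lower, with a median of -0.11 and of 0.40 when scaled. Kif18a and Kif11, which act in chromosome alignment and in spindle bipolarity, had 3.39 and 35.9, and 3.31 and 19.3 FPKM, and the chromokinesin gene Kif22 153 and 5.72. Of 16 tubulin genes, 5 were lower and 1 higher (median -0.81). Tubb4b went from 1030.2 to 111 and Tubb3 from 222 to 977. The actin and cortex list held 31 genes, 11 lower and 4 higher, and its median of -0.45 turned to 0.05 when scaled. Actb had 147 and 31.7, Actr2, a subunit of the ARP2/3 nucleator, 15.4 and 104, and Fmn2, the formin that moves the meiotic spindle, 34.3 and 73.

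The cytosolic ribosomal protein genes had the lowest median of the lists with 5 or more genes. Of the 77, 52 were lower and 5 higher (median -2.02, and -1.49 scaled, against -0.51 over all genes). Rpl4 had 152 and 2.31 FPKM and Rpl19 317 (298 to 336) and 8.76 (6.37 to 11.1). The most abundant member at GV, Rpl35, went from 1564 to 299. Against this direction, Rpl32 had 85.1 and 581, Rps28 76.6 and 402, and Rpl38 38.7 and 172. These exceptions were low in the GV library labelled Erk-/-, since wild-type GV had 475, 392 and 354. The list summed to 22381 FPKM at GV and 10233 at MII, 5.32% and 2.47% of the libraries. Ribosomal protein genes have many processed pseudogenes, and how the authors assigned reads shared with them is not given in the sources used here.

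Mitochondrial ribosomal protein genes had 34 of 70 lower and 12 higher (median -0.85). Mrps22 went from 128 to 0.691 FPKM and Mrpl12 from 77.1 to 0.696, while Mrps36 had 166 and 153. Initiation and elongation factor genes had 30 of 56 lower and 10 higher (median -1.35). Subunits of the eIF3 complex were among the lower ones, as with Eif3g (131 and 9.05) and Eif3m (108 and 6.82), as were the elongation factors Eef1a1 (698 and 61.1) and Eef2 (139 and 16.5). Eif4a1, the cap-complex helicase, had 421 and 629, and Eif4e, the cap-binding protein, 83.2 and 48. Of 17 aminoacyl-tRNA synthetase genes, 10 were lower and none higher (median -1.90, and -1.16 with a pseudocount of 5), with 116 and 8.98 for the arginyl enzyme Rars and 139.8 and 136 for Farsb.

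Proteasome and chaperone genes were also lower in a share above the 40.4% over all genes. Of 34 proteasome subunit genes, 22 were lower and 4 higher (median -1.94). The ATPase subunits Psmc2 (99.9 and 1.57 FPKM) and Psmc1 (45.2 and 1.02) were far lower, and Psmd3 (69.3 and 229) and Psma5 (50.5 and 142) were higher. Ubiquitin-conjugating enzyme genes were split, with 4 of 24 higher and 5 lower, and a median of -0.01 that was 0.52 scaled. Ube2s, which extends chains for the anaphase-promoting complex, had 686 and 1076. Heat-shock protein and chaperonin genes had 30 of 55 lower and 8 higher (median -1.64, and -0.74 at 1 FPKM or more). Hspa8, the constitutive HSP70, had 572 and 32, Hsp90aa1 859.8 and 112, and Hsp90ab1 201 and 387.

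Respiratory chain genes were lower in shares near the 40.4% over all genes. Complex I genes had 15 of 36 lower and 6 higher (median -0.64), and complexes II to V 15 of 40 lower and 10 higher, with a median of -0.27 as deposited and 0.25 scaled. Ndufb11 had 345 and 74 FPKM, the ATP synthase genes Atp5e and Atp5o 1245 and 574, and 302 and 13.1, and Atp5k 194 and 685. Glycolysis and TCA cycle genes had 13 of 27 lower and 5 higher (median -0.99). Pkm, the pyruvate kinase gene, went from 331 to 109, whereas Gapdh had 32.4 and 25.9 and citrate synthase (Cs) 108 and 100.1.

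RNA helicases had 27 of 47 genes lower and 6 higher (median -1.32), as with Dhx29, which helps ribosomes scan structured leaders (38.5 and 0.276 FPKM), against Ddx3x (118 and 417). Splicing factor and hnRNP genes had 12 of 58 higher and 13 lower (median 0.06), with Snrpd2 at 252 and 29.1 and Hnrnpu at 45.2 and 141. Nuclear pore and transport genes had 8 of 33 higher and 9 lower, with a median of -0.10 that was 0.40 scaled. The importin alpha gene Kpna2 went from 491 to 94.4 and the importin genes Ipo8 and Tnpo1 from 58.9 to 297 and from 31 to 187. Small-RNA pathway genes had 10 of 19 lower and 2 higher (median -1.35, and -0.64 at 1 FPKM or more), with 297 and 106 for the PIWI cofactor Gtsf1 and 73.7 and 49.4 for Dicer1.

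Chromatin genes went both ways. Of 25 histone genes, 11 were higher and 8 lower, with a median of -0.06 that was 0.42 scaled and -0.69 at 10 FPKM or more. The variant H3.3 genes H3f3b and H3f3a had 184 and 612, and 434 and 566 FPKM, and the linker histone H1fx 82.1 and 5.67. Replication-dependent histone mRNA ends in a stem-loop, close copies abound, and whether poly(A) RNA was selected is not stated in the labels, so the values of these families are uncertain. Histone chaperone genes had 7 of 19 higher and 4 lower (median 0.14), as with the H3-H4 chaperones Asf1b (70.3 and 277) and Chaf1a (208 and 22.1). Histone methylation enzyme genes had 7 of 27 higher and 4 lower (median 0.38), with 19.9 and 68.5 for the H3K27 demethylase gene Kdm6a. In the DNA methylation list 4 of 13 were higher and 5 lower (median 0.29, and -0.02 at 1 FPKM or more). Tet3, which oxidizes 5-methylcytosine in the zygote, measured 19.07 FPKM at GV (18 to 20.1) and 224 at MII (218 to 226), while the maintenance methyltransferase gene Dnmt1 had 868 and 229.

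Oocyte transcription factor genes had 7 of 19 higher and 5 lower (median 0.42). Factors of oocyte growth went both ways, with 309 and 36.5 FPKM for Nobox, 32.1 and 6.91 for Figla, and 135 and 44.7 for Lhx8, all lower, while Sohlh2 was listed at 0 at GV and had 13.5 at MII. The homeobox genes Obox1, Obox2 and Obox5, near-identical copies in part, were higher (524 and 1711, 714 and 2100.5, 382 and 1572). In the Zfp zinc-finger family, 70 of 126 were lower and 24 higher (median -1.17), with Zfp296 at 244 and 26.8. The p53 and BCL2 list had 4 of 10 higher and 1 lower (median 0.42, and 1.09 at 1 FPKM or more, where 19 genes enter). Trp53 measured 0.0729 FPKM at GV (bounds 0 to 0.352) and 48.5 at MII (44.8 to 52.3), and its ligase Mdm2 43.7 and 94.1.

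Among the genes that keep meiosis arrested through cAMP, 5 of 14 were higher and 1 lower (median 0.27). The phosphodiesterase gene Pde3a, whose enzyme lowers cAMP so that meiosis can resume, had 28.9 and 66.4 FPKM, the receptor gene Gpr3 76.5 and 60.3, and Gnas, the stimulatory G protein, 278 and 88.5. F-box genes had 19 of 52 lower and 14 higher, with a median of -0.47 that was 0.03 scaled. The oocyte cluster of Fbxw genes, which are near copies, ran from Fbxw21 (799 and 87) to Fbxw19 (377 and 352). Rab GTPase genes had 6 of 30 higher and 8 lower, with a median of -0.36 that was 0.15 scaled, and Rab7 had 480.0 and 507. Solute carrier genes had 31 of 112 higher and 30 lower (median 0.23), as with Slc23a2, the vitamin C transporter (41.5 and 319.8), and Slc6a9, the glycine transporter (128 and 40.5).

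**Figure D5:**
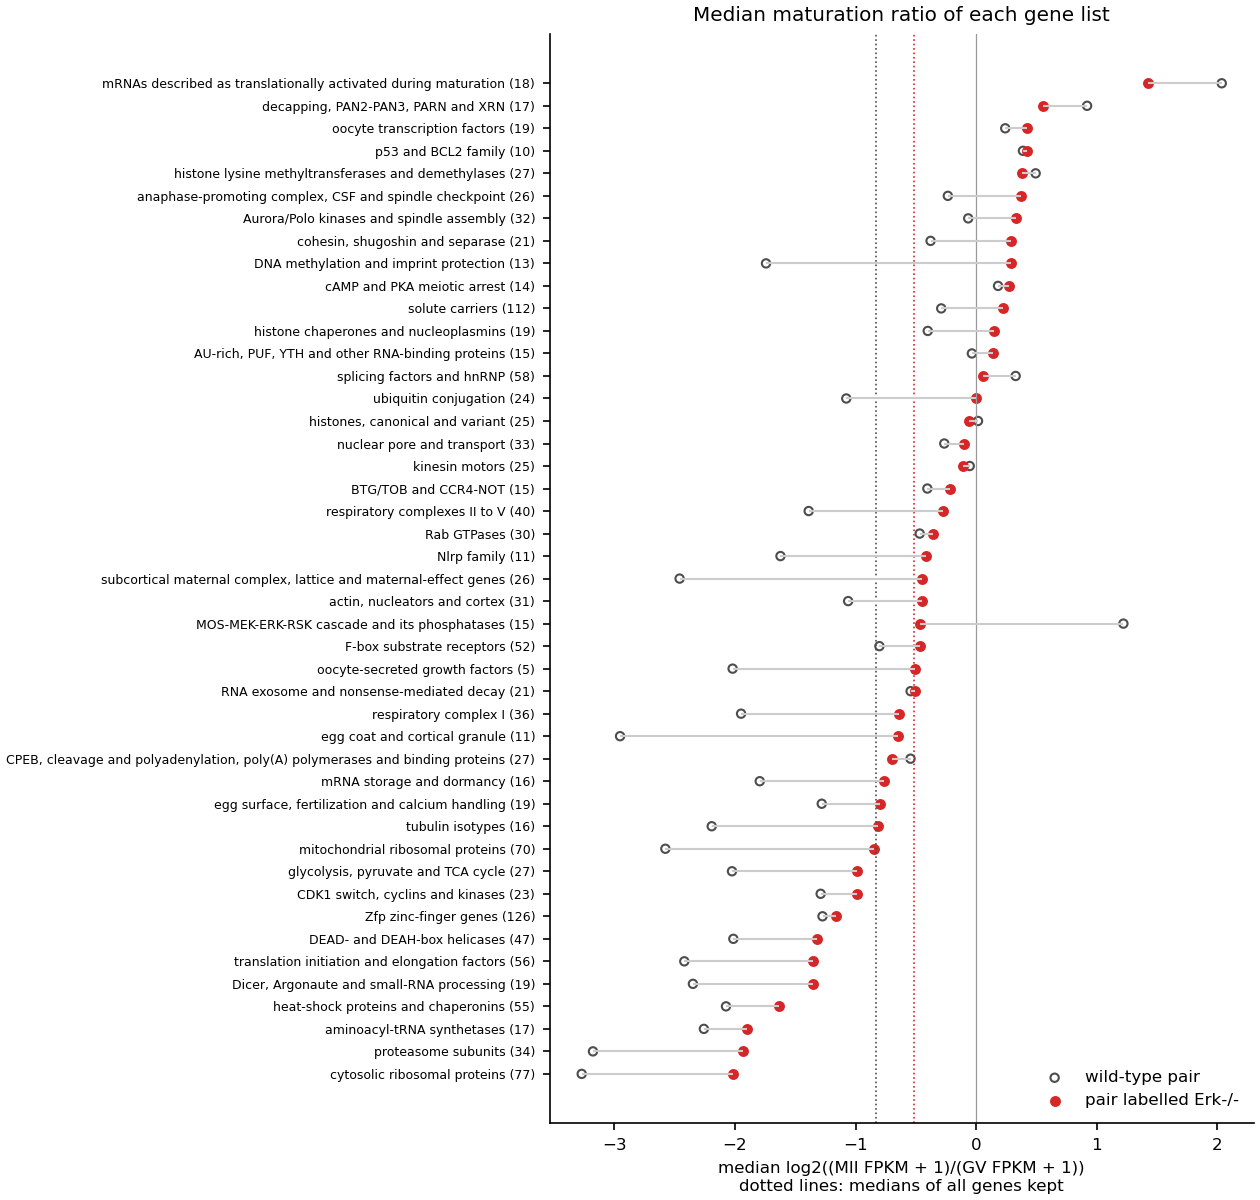
Median maturation ratio (horizontal, log2) of each gene list with 5 or more genes, with the number of genes in brackets, in the pair labelled Erk-/- (filled red) and over the same genes in the wild-type pair (open). Dotted lines mark the medians of all 7821 genes, -0.51 and -0.83, and the lists run from the ribosomal proteins (-2.02, wild type -3.27) to the messages translated during maturation (1.42, wild type 2.04).

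Single genes farthest apart came from many functions. Among protein-coding genes of at least 100 FPKM in 1 of the libraries and above 0 in both, the lowest ratios were those of Thap7, a zinc-finger gene (144 FPKM at GV and 0.273 at MII), Mrps22, Rpl4, Rpl10a (195 and 4.38) and Rpl19. Further down came Cenpm, a centromere component (155 and 4.55), and Sfr1, a recombination cofactor (397 and 14.6). High ratios were those of Kdelr2, a retrieval receptor of the endoplasmic reticulum (1.11 and 121, with 22.1 in wild-type GV), Gtf2a1, the RNA-binding protein gene Raver1 (10.05 and 153), Tcl1b3 (27.2 and 385), Wapal, Lbr and Tet3. Ern1, the endoplasmic reticulum stress sensor IRE1 alpha, had 79.7 and 809, and Ireb2, which binds iron-responsive elements, 10.3 and 119.7. In wild type, Raver1 (20.5 and 236), Tcl1b3 (32.7 and 529.7), Lbr (23.7 and 287) and Ern1 (61.3 and 862) were higher at MII as well.

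Some large ratios rest on 1 library at or near 0. Of the 1718 higher genes, 387 had under 1 FPKM in the GV library labelled Erk-/- (283 were listed at 0), and 153 of these had 5 FPKM or more in wild-type GV. Sdhc, a subunit of succinate dehydrogenase, had 0.116 and 32.8 FPKM in the pair labelled Erk-/- and 78.2 and 47.5 in wild type, and Npm3 0.340 and 20.4 against 46.7 and 35.1. The part that this GV library plays in such ratios was not tested. Over all higher genes, 37.9% were at least 2-fold below wild type in the GV library labelled Erk-/-, against 14.8% of all 7821 genes, 2 comparisons that share that library. The MII library also differed from its wild-type counterpart. Of all 7821 genes, 33.8% were at least 2-fold above wild type at MII and 5.77% below, against 20.1% above and 14.8% below at GV. Of the 3157 lower genes, 687 had under 1 FPKM at MII (325 listed at 0), and 545 of these were also under 1 FPKM in wild-type MII.

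Set beside wild type, the lower genes were largely shared. Over the same 7821 genes the wild-type pair had 3744 lower (47.9%) and 1682 higher (21.5%), with a median of -0.83 and quartiles of -2.73 and 0.75. Of the 3157 genes lower in the pair labelled Erk-/-, 2406 (76.2%) were lower in wild type too, which is 64.3% of the wild-type lower genes, and 139 were higher there. Of the 1718 higher genes, 973 (56.6%) were higher in wild type, which is 57.8% of the wild-type higher genes, and 215 were lower there. The genes were chosen by their level in the pair labelled Erk-/-, which leaves out genes of the wild-type pair alone, and the difference between the pairs was not tested. In the lists, the wild-type median was lower by over 1 unit for the egg coat (-2.95 against -0.65), maternal-effect (-2.46 against -0.45), Nlrp (-1.62 against -0.41), mitochondrial ribosomal (-2.58 against -0.85) and complex I genes (-1.95 against -0.64), among others shown in the plot of list medians.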

How the data were processed

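The 4 libraries were each made from 60 oocytes. The reads were handled with CASAVA 1.8 and with TopHat on mouse build mm9, per the submitters' processing notes. For FPKM itself the program is not given in the sources used here. As deposited, the tables hold FPKM per gene with the authors' lower and upper bounds, which describe 1 library each and carry no spread between oocyte pools. Values on rows that share a symbol were summed (43 of the genes kept had several rows). Genes with 5 FPKM or more in 1 of the libraries labelled Erk-/- were kept, and the ratio was log2((MII + 1)/(GV + 1)), which understates the change of low genes. A 2-fold rule of size took the place of a test. Calculations used Python 3.11.15, pandas 2.3.3, numpy 2.4.6 and scipy 1.17.1, figures matplotlib 3.10.9, and the computation was tested on simulated data. In the simulated data few genes changed, and equally many rose and fell, unlike here. The simulation therefore does not show how the scaling performs on these libraries. 3′ UTR sequence came from GENCODE M21.

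The members and the 52 gene lists were chosen with earlier results of these data known. Genes were named by rule: the 12 highest and 12 lowest ratios at 10 FPKM or more and at 100 FPKM or more, the 12 most abundant genes of each library, from each list at most 4 genes by size of ratio and the 2 most abundant, and 17 core genes (295 genes in all). Other list members named in the text were chosen after their values were seen. Alternatives were pseudocounts of 0.1 and 5, filters of 1 and 10 FPKM and none, 2 scalings, and leaving out genes at 0, symbols on several rows or genes with overlapping bounds. A pair of alternatives on genes low in single libraries was chosen after seeing the data. Whether the libraries were strand-specific is not stated in the labels, so overlapping genes and near-identical copies are uncertain. Some genes are not reported here.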

Additional observations from a re-analysis of the deposited data

Results flagged for a closer look

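For 3 of the genes named by the rule, the maturation ratio was far from 0 in both pairs and had opposite signs. H2afy, which encodes the histone variant macroH2A1, had a ratio of -3.49 in the pair labelled Erk-/- (21.1 FPKM at GV and 0.963 at MII) and of 2.63 in wild type (0 and 5.18). Ndufa5, a subunit of respiratory complex I, had 5.74 (0 and 52.3) and -1.95 (50.6 and 12.4). Pld6, a mitochondrial phospholipase of the piRNA pathway, had 3.91 (0 and 14.1) and -2.25 (6.65 and 0.607). In each of them 1 library was listed at 0, so the ratio rests on the pseudocount. With 1 library per group the difference between the pairs was not tested.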

How the results depend on the processing

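No paired analysis was possible because each group has 1 library and the labels carry no replicate numbers. The count of higher genes was 1718 as reported and 2724 both at 1 FPKM or more and with no filter, where more genes enter. The count of lower genes was 3157 as reported and 2103 among genes above 0 in all 4 libraries, an alternative chosen after seeing the data that leaves 6230 genes. Under the other alternatives both counts stayed within 1.5 times, from 1343 to 2395 higher and from 2470 to 3809 lower. Median-of-ratios scaling gave 2395 and 2470, a near-even split that follows from how the scaling is set. Of 46 list medians, 20 moved with no filter, where undetected genes enter at a ratio of 0, 17 with median-of-ratios scaling, 7 at 1 FPKM or more, 5 at 10 FPKM or more and 1 to 5 under each of the others run on the lists. Medians of the MAPK, Rab, ubiquitin enzyme, DNA methylation, AU-rich, PUF and N6-methyladenosine binding, cohesin, checkpoint and histone lists also changed sign under a filter or when genes low in single libraries were left out. The cause was not tested. Precision is limited to single libraries of pooled cells, and the read depth is unknown.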
